A study of Mus musculus with 18 samples.

Results

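The 10 genes described here are markers of vascular endothelial cells, the lining of blood vessels: Tie1, Tek, Dll4, Pecam1, Cdh5, Kdr, Flt1, Cldn5, Esam and Eng. They were chosen by name from the 55487 genes of the count table, and all 10 were found there. Tie1 and Dll4 were chosen because they differed between knockout and control retina in an earlier look at these libraries, and the other 8 were added as endothelial markers with that result known. Differences between genotypes are therefore a description: no p-value is printed for a single member, and the numbers of members past a threshold stand beside those over all genes without being read as a result. Differences between sorted fractions were tested for the other 8 genes only.

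Cells of the mouse retina were sorted by flow cytometry into live CD11b-positive cells, called microglia here after their label, and live CD11b-negative cells, called retina. Each fraction came from controls of genotype Bmal1f/f (4 libraries) and from knockouts of genotype Bmal1-mg/-mg (5 libraries), 18 libraries in all. Bmal1 encodes a transcription factor of the circadian clock, and both genotypes share the sorting and the low-input amplification. Age, sex, strain background and the recombinase behind the deletion are not given in the sources used here. Nothing in the labels ties each library to its own animal, and the p-values below therefore reflect only how much these samples vary, which may be technical.

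Endothelial cells sense vascular growth factors through receptor tyrosine kinases, with KDR as the main signalling VEGF receptor, FLT1 as a decoy-like VEGF receptor, and TEK and TIE1 as the angiopoietin receptor and its partner. The Notch ligand DLL4, made by tip cells and arterial endothelium, restrains VEGF-driven sprouting in the retina, where this circuit has been studied most closely. VE-cadherin (CDH5), PECAM1, ESAM and claudin 5 (CLDN5) hold endothelial cells together and build the blood-retina barrier, and endoglin (ENG) is a co-receptor for BMP9 and TGF-beta. Several of these genes are not restricted to vessels: Eng and Pecam1 are also made by cells of the myeloid lineage, and Kdr by some retinal neurons.

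Total counts were 32277156 to 47563119 per library, so that 3 counts, the limit that a count of 0 allows, were 0.0631 to 0.0929 CPM, the count scaled to the total of its library. This limit covers counting error only, because amplified reads are not independent molecules. Between 16510 and 18715 genes had a count in control retina and between 18761 and 19713 in knockout retina, ranges that did not overlap. Microglia libraries ran the other way, with 18654 to 19363 genes in controls and 17343 to 18438 in knockouts. The targeted gene, listed as Arntl, was at 107 to 129 CPM in control retina and 84.8 to 135 CPM in knockout retina, and at 9.29 to 26.6 and 1.91 to 22.1 CPM in the corresponding microglia. The edgeR log2 change of Arntl was -0.44 in microglia (SE 0.62, adjusted p = 0.999) and -0.35 in retina (SE 0.17, adjusted p = 0.392), and genotypes were taken as labelled. Summed CPM of 14 microglial genes was 65242 to 71909 in the microglia libraries and 8.78 to 28.7 in the retina libraries.

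The start regions of Tie1 and Dll4 are shown because these are the 2 genes with almost no reads in control retina. Each window runs from 250 bases before to 50 bases after the RefSeq transcript start on GRCm38.p6 and is written 5′ to 3′ on the strand of the gene. Capitals mark GGAAG, the core letters bound by ETS factors, or its reverse complement CTTCC. Tie1 lies at chr4:118489800-118490099 on the minus strand and Dll4 at chr2:119325534-119325833 on the plus strand. In the GENCODE M21 annotation Tie1 starts at 118490061, so most of its window lies inside the annotated gene. Dll4 starts there at 119325784, the same base as the RefSeq start, so the 2 windows are not alike.
Tie1: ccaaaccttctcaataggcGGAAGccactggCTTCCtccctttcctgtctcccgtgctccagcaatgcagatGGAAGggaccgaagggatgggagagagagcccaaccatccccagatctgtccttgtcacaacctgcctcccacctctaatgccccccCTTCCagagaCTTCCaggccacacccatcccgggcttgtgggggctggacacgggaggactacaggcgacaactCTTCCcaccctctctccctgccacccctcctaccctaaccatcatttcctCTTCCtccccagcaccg
Dll4: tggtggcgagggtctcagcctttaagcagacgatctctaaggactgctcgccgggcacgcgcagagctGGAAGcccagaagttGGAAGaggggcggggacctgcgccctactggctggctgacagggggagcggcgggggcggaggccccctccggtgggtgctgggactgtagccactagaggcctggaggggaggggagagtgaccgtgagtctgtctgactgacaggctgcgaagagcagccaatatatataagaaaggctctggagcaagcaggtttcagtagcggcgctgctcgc
The Tie1 window held 7 matches on the 2 strands, a number reached by 0.234% of 32851 RefSeq windows of 300 bases, and the Dll4 window held 2, reached by 37.9%. Among the other members with a window, Flt1 had 3 matches, Eng 2, Kdr 1, and Tek and Cldn5 had 0, where 71.4% of all windows held at least 1. The letters CACGTG, the E-box that BMAL1 binds with CLOCK and that reads the same on both strands, were found in 0 of the 7 member windows and in 7.15% of all windows. A CACGTG match can share only its end letter with a GGAAG or CTTCC match, and a match of letters is not a measured binding site.

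Read counts of these genes in the retina were uneven between libraries of the same group. In control retina, 5 of the 7 members that reached 100 reads in some library had at most 2 reads in another (Tek, Pecam1, Cldn5, Esam and Eng), and in knockout retina 1 of 9 did (Tek). Across all genes the same pattern was found in 22.9% of those reaching 100 reads in control retina and in 13.3% in knockout retina. Of the 40 member values in control retina 16 were exactly 0, against 1 of 50 in knockout retina, 12 of 40 in control microglia and 18 of 50 in knockout microglia. Members with at least 10 reads numbered 5, 8, 3 and 5 in control retina replicates 1 to 4, and 10, 10, 10, 9 and 8 in knockout retina replicates 1 to 5. In microglia the numbers were 5, 4, 8 and 6 in controls and 7, 5, 6, 4 and 5 in knockouts. Detection of the list was thus higher in knockout retina, with only control retina replicate 2 reaching the lowest knockout value, and the number of genes with a count was higher there as well. The part of that difference in the results below was not tested. In sorted bulk samples, fewer endothelial cells and less RNA per endothelial cell cannot be told apart.

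**Figure D1:**
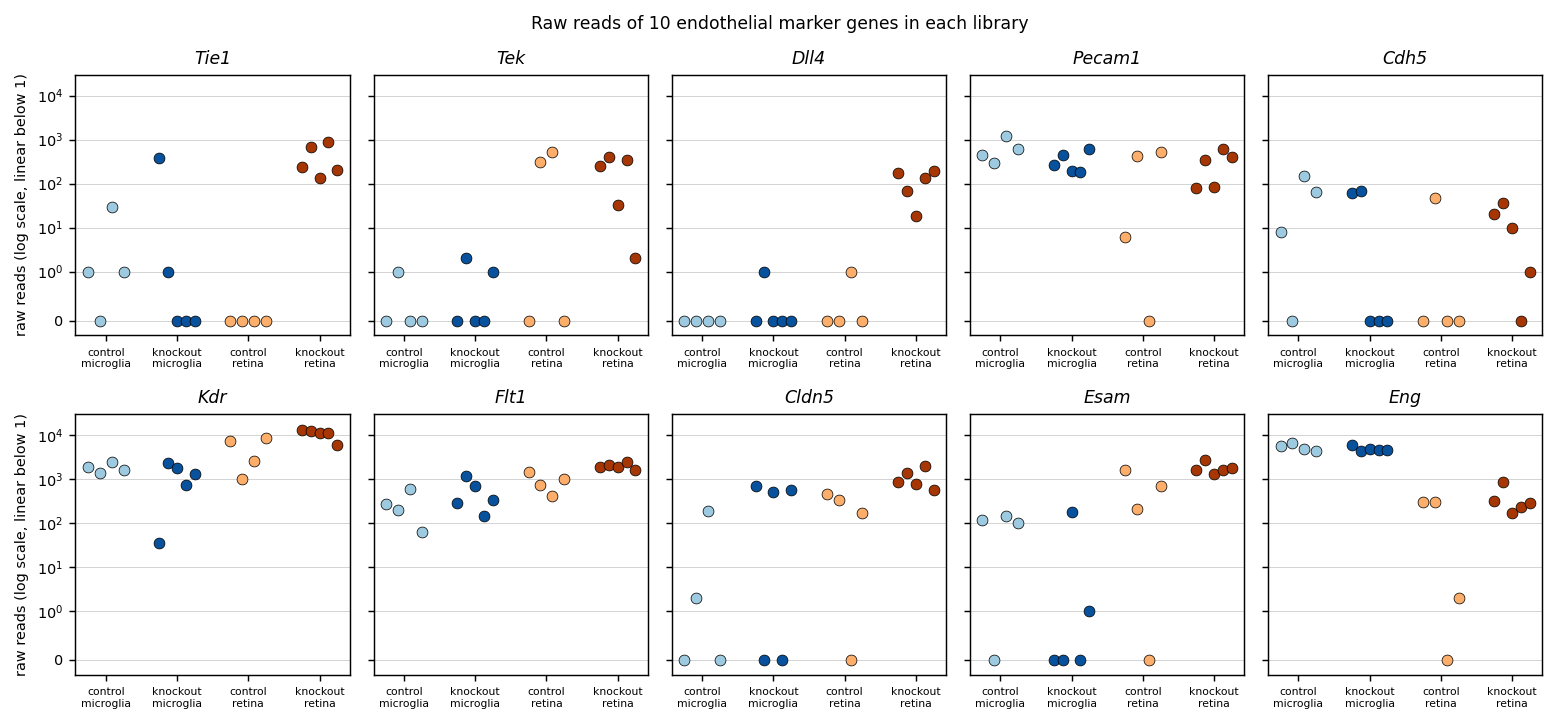
Reads of each of the 10 genes in each of the 18 libraries (vertical axis of raw reads, logarithmic above 1 and linear below it; 1 panel per gene, points are libraries, grouped by fraction and genotype). Tie1 has 0 reads in the 4 control retina libraries and 135 to 887 in the 5 knockout retina libraries, while Eng is highest in microglia.

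**Figure D2:**
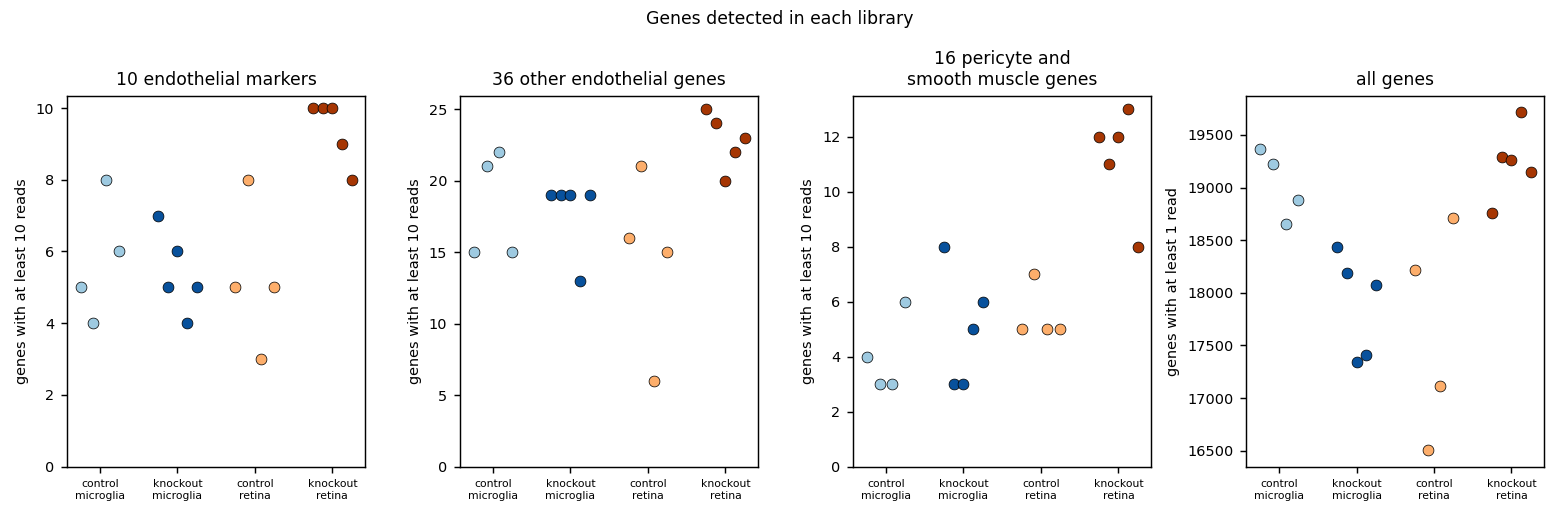
Number of genes with at least 10 reads in each library (points, grouped by fraction and genotype) among the 10 members, 36 other endothelial genes and 16 pericyte and smooth muscle genes, and, in the last panel, number of all genes with at least 1 read, on an axis that does not start at 0. Knockout retina libraries hold 8 to 10 detected members and control retina libraries 3 to 8.

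Tie1 (ENSMUSG00000033191, chromosome 4, 118471191 to 118490061, minus strand, GRCm38) had 0 reads in each of the 4 control retina libraries. Knockout retina replicates 1 to 5 had 239, 689, 135, 887 and 204 reads. Each knockout library was above each control library, and replicates 2 and 4 were the highest. Control microglia replicates 1 to 4 had 1, 0, 29 and 1 reads. Knockout microglia replicates had 388, 1, 0, 0 and 0 reads, so that nearly all Tie1 reads of that group came from replicate 1. Mean Tie1 levels were 10.9 ± 8.51 CPM in knockout retina (SD, n = 5), 1.81 ± 4.02 CPM in knockout microglia (n = 5) and 0.184 ± 0.335 CPM in control microglia (n = 4). Against a floor of 3 counts over the control retina group, Tie1 was at least 619-fold higher in knockout retina.

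Tek (ENSMUSG00000006386, chromosome 4, 94739289 to 94874976, plus strand), the angiopoietin receptor to which TIE1 binds, did not share this pattern. Control retina replicates had 0, 316, 532 and 0 reads, and knockout retina replicates had 253, 404, 33, 346 and 2. The genotypes overlapped over their whole range, with means of 5.51 ± 6.72 and 5.25 ± 4.48 CPM (n = 4 and 5). Microglia held 1 Tek read in the control group and 3 in the knockout group. The ratio of summed Tek reads, scaled by summed totals, in retina over microglia was 829 in controls (95% counting interval 148 to 32785) and 349 in knockouts (119 to 1695). The fitted log2 change between genotypes in retina was -0.26 (SE 1.88), turned positive without control retina replicate 2 or 3 or knockout replicate 3 or 5, and was 2.78 with limma voom.

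Dll4 (ENSMUSG00000027314, chromosome 2, 119325784 to 119335962, plus strand) had 0, 0, 1 and 0 reads in control retina. Its knockout retina replicates had 173, 69, 18, 132 and 197 reads, all above the controls. Microglia held 0 Dll4 reads in controls and 1 in knockouts, in replicate 2. The mean in knockout retina was 3.06 ± 1.97 CPM (n = 5). The ratio of knockout to control retina, from 589 and 1 reads, was 508 with a 95% counting interval of 90.8 to 20085. Exons of Dll4 overlap the opposite-strand gene Gm14207, which had 25 reads in control retina, in 1 library, and 0 in knockout retina, and whether counting used strand is not given in the sources used here.

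Kdr (ENSMUSG00000062960, chromosome 5, 75932827 to 75978458, minus strand) was the most abundant member of the list in retina. Control retina replicates had 7164, 1009, 2595 and 8626 reads, and knockout retina replicates had 13001, 12220, 11126, 11007 and 5912. Control replicates 1 and 4 lay above the lowest knockout library in reads and replicate 4 alone in CPM, so the genotypes overlapped. In microglia Kdr had 1867, 1382, 2445 and 1576 reads in controls and 35, 2235, 1727, 716 and 1282 in knockouts. Mean levels were 111 ± 79.0 and 276 ± 75.4 CPM in control and knockout retina, and 44.3 ± 9.98 and 30.7 ± 20.9 CPM in the corresponding microglia.

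Flt1 (ENSMUSG00000029648, chromosome 5, 147561604 to 147726011, minus strand) was counted in each of the 18 libraries. It had 1425, 723, 407 and 976 reads in control retina and 1852, 2116, 1850, 2461 and 1630 in knockout retina. The lowest knockout library lay above the highest control library, with means of 51.2 ± 8.80 and 20.6 ± 8.11 CPM. Flt1 in microglia ran from 61 to 598 reads in controls (263, 193, 598 and 61) and from 146 to 1167 in knockouts (281, 1167, 681, 146 and 336), and the genotypes overlapped. Among the 10 genes, Flt1 had the smallest spread relative to its mean in knockout retina.

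Among the junction genes, Cldn5 (ENSMUSG00000041378, chromosome 16, 18776847 to 18778262, plus strand) had 450, 327, 0 and 169 reads in control retina and 839, 1361, 779, 1935 and 572 in knockout retina. The genotypes did not overlap, with means of 5.51 ± 4.41 and 28.3 ± 14.3 CPM. Cldn5 in microglia was present in some libraries and near 0 in others, with 0, 2, 183 and 0 reads in controls and 694, 0, 498, 0 and 560 in knockouts. Esam (ENSMUSG00000001946, chromosome 9, 37528078 to 37538319, plus strand) had 1552, 204, 0 and 678 reads in control retina and 1593, 2709, 1314, 1558 and 1803 in knockout retina. Its reads overlapped between genotypes, but in CPM the lowest knockout library lay above the highest control library, at means of 13.5 ± 14.4 and 45.7 ± 9.74 CPM. Microglia had 118, 0, 145 and 100 Esam reads in controls and 0, 0, 173, 0 and 1 in knockouts.

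The adhesion molecules Pecam1 and Cdh5 gave a different picture. Pecam1 (ENSMUSG00000020717, chromosome 11, 106654217 to 106750628, minus strand) had 6, 413, 0 and 512 reads in control retina and 80, 350, 85, 626 and 407 in knockout retina, which overlapped. It was detected in every microglia library, with 442, 300, 1200 and 621 reads in controls and 269, 452, 195, 185 and 610 in knockouts. Cdh5 (ENSMUSG00000031871, chromosome 8, 104101625 to 104144511, plus strand), the endothelial cadherin, was the least abundant of the 10 in knockout retina. It had 0, 48, 0 and 0 reads in control retina and 20, 36, 10, 0 and 1 in knockout retina, and 8, 0, 145 and 66 reads in control microglia against 60, 69, 0, 0 and 0 in knockout microglia. A defining endothelial marker was thus at 0.317 ± 0.634 and 0.333 ± 0.351 CPM in control and knockout retina, where Kdr and Esam were far higher.

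Eng (ENSMUSG00000026814, chromosome 2, 32646595 to 32682669, plus strand) was mainly a gene of the CD11b-positive fraction. Control microglia replicates had 5462, 6424, 4787 and 4386 reads and knockout microglia replicates had 5885, 4383, 4669, 4527 and 4415. Control retina replicates had 298, 299, 0 and 2 reads and knockout retina replicates had 321, 859, 164, 224 and 290. Each microglia library was above each retina library, and the genotypes overlapped in both fractions. Exons of Eng overlap the opposite-strand gene Fpgs, which had 0 to 1386 reads per library in microglia and 0 to 271 in retina.

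Levels can be ordered between genes only after division by length, as CPM per kilobase. The length used was that of all annotated exons of a gene combined, which can exceed that of a single transcript. In knockout retina the order was Kdr (30.6 ± 8.35), Cldn5 (19.95 ± 10.1), Esam (15.9 ± 3.40), Flt1 (3.79 ± 0.652), Eng (2.28 ± 1.48), Tie1 (2.23 ± 1.73), Pecam1 (1.27 ± 0.974), Tek (1.11 ± 0.947), Dll4 (0.795 ± 0.512) and Cdh5 (0.0791 ± 0.0834). Neighbours in that order differed by less than the sum of their SDs except Esam over Flt1 and Dll4 over Cdh5. In control retina Kdr led with 12.3 ± 8.75, followed by Esam (4.69 ± 5.01), Cldn5 (3.89 ± 3.11) and Flt1 (1.52 ± 0.600), with each neighbouring pair within the sum of their SDs, then by Tek, Pecam1, Eng, Cdh5, Dll4 and Tie1. Microglia were led by Eng in both genotypes, at 31.8 ± 4.86 in controls and 30.3 ± 3.61 in knockouts. Kdr came second in control microglia (4.91 ± 1.11), and Cldn5 (5.99 ± 5.57) and Kdr (3.40 ± 2.31) followed in knockout microglia without standing apart. Summed over the 10 genes, CPM was 88.3 to 255 in control retina and 281 to 511 in knockout retina, of which Kdr made up 30.2 to 78.7% and 53.7 to 71.7%.

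The comparison of knockout with control retina is the one from which Tie1 and Dll4 were chosen. All 10 genes passed the filter on low counts, Tie1 and Dll4 through knockout retina alone, 8 with a positive and 2 with a negative fitted log2 change, and their median was 1.26 against 0.00 for the 15332 genes tested. At an edgeR adjusted p under 0.05, 2 of the 10 were called, both higher in knockouts (Tie1 and Dll4), beside 1.66% of all genes tested in either direction and 1.34% higher. This count restates how Tie1 and Dll4 were chosen. With the replicate block neither was called, and Dll4 was also not called without control retina replicate 1, 2 or 3, or with no filter. Between genotypes 5 of the 10 did not overlap in CPM, all higher in knockouts (Tie1, Dll4, Flt1, Cldn5 and Esam), beside 6.32% of all genes. These shares are set side by side as a description, since the choice of genes used this contrast. Fitted log2 changes were 11.72 (SE 1.28) for Tie1 and 8.27 (SE 1.36) for Dll4, sizes that depend on how the fit treats counts at 0. They were 2.24 (SE 1.11) for Cldn5, 1.73 (SE 1.10) for Esam, 1.27 (SE 0.48) for Kdr, 1.25 (SE 1.47) for Eng and 1.23 (SE 0.27) for Flt1. Pecam1 was at 0.34 (SE 1.47), between -0.07 and 0.99 as single libraries were dropped and 3.05 with limma voom, and Cdh5 at -0.11 (SE 1.86). The Cdh5 value was 6.76 without control retina replicate 2, the only control retina library with Cdh5 reads, 0.23 and 0.19 without knockout retina replicate 4 or 5, and 1.86 with limma voom. In the authors' deposited table for retina, Tie1 (log2 change 11.72), Dll4 (8.28), Kdr (1.26) and Flt1 (1.23) were past an adjusted p of 0.05, beside 744 of all 13330 genes listed. Cdh5 was not listed. That table rests on the same libraries and the same contrast, so it is no separate support.

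In microglia the same 10 genes gave no genotype call. Tie1, Tek and Dll4 did not pass the filter, and 0 of the other 7 were called by edgeR, DESeq2 or limma voom, with 0 at an unadjusted p under 0.05, beside 0.115% of 14835 genes called by edgeR (0.101% higher and 0.0135% lower), 1.61% by DESeq2, 0.175% by limma voom and 5.76% at an unadjusted edgeR p under 0.05. All 10 overlapped between genotypes, including Tie1, beside 1.5% of genes higher and 1.87% lower without overlap. The log2 change of Eng, the gene measured with the smallest error, was -0.02 (SE 0.14), and those of the rest ran from -1.33 (SE 2.15) for Esam to 2.95 (SE 2.48) for Cldn5.

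**Figure D3:**
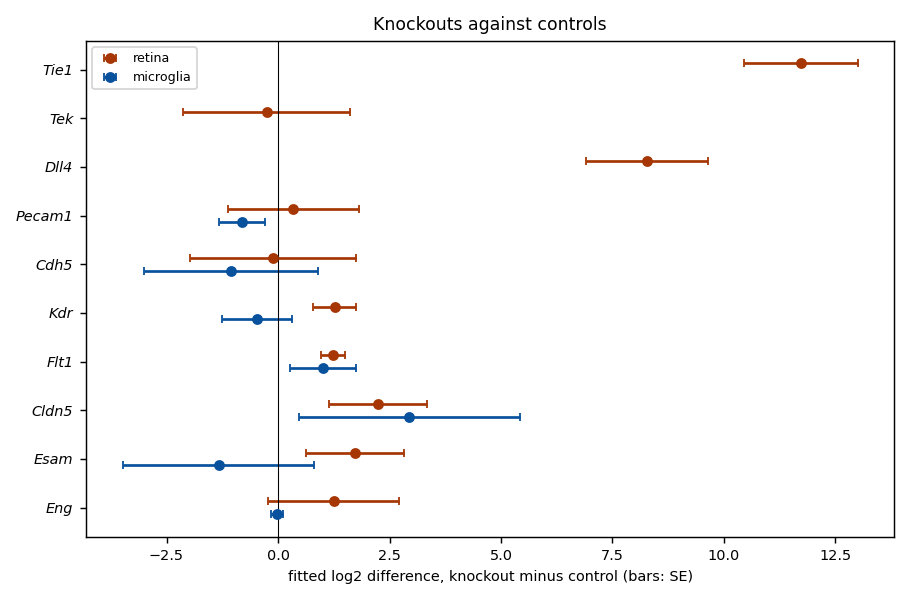
Fitted log2 change, knockout minus control, of the members that passed the filter, in retina and in microglia (points with bars of 1 SE). Tie1 and Dll4, chosen from the retina contrast, stand at 11.72 and 8.27, values that depend on the treatment of 0 counts, and Eng in microglia lies at -0.02.

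The comparison of fractions asks which of these genes the CD11b-negative cells carry and which the CD11b-positive cells carry, and it played no role in choosing Tie1 and Dll4. Those 2 genes were left untested because the retina libraries are shared with the contrast that chose them. In controls, Eng was lower in retina than in microglia, with means of 3.55 ± 4.13 and 129 ± 19.7 CPM (log2 difference -5.20, SE 1.60, given without a p-value). Eng passed the filter through its microglia reads, since control retina replicates 3 and 4 held 0 and 2 reads. A test of it in controls could hardly show another direction, so its call carries no weight. Eng was the only one called of the 6 genes that passed the filter, beside 40.2% of all 15188 genes (17.4% higher and 22.8% lower in retina). That call was lost without any 1 of the control microglia libraries or without control retina replicate 1. It was also lost with the replicate number as a block (log2 difference -7.31), while the direction held. Flt1 was at 1.52 (SE 0.65, adjusted p = 0.100), and reached 0.0274 without control microglia replicate 3 and 0.0364 with limma voom. Kdr was at 1.19 (SE 0.52, adjusted p = 0.103), and reached 0.0140 without control retina replicate 2. Esam (2.46, SE 1.89), Cldn5 (2.22, SE 2.32) and Pecam1 (-1.52, SE 1.60) had adjusted p of 0.338, 0.482 and 0.487 in edgeR.

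In knockouts 4 of 7 genes (Eng, Kdr, Flt1 and Esam) were called between fractions, beside 44.9% of 15211 genes (21.2% higher and 23.7% lower in retina). The call of Esam carries no weight, for the reason given below. Eng was again lower in retina (log2 difference -3.86, SE 0.41, edgeR adjusted p = 3.00e-05). Kdr was higher in retina by 3.03 on the log2 scale (SE 0.78, adjusted p = 0.00929) and Flt1 by 1.82 (SE 0.48, adjusted p = 0.0111). Esam was at 5.61 (SE 1.79), given without a p-value, and its call was lost without knockout retina replicate 2. Esam passed the filter through knockout retina alone, since 1 knockout microglia library held 173 reads and the others at most 1. A test of it could hardly show another direction. Eng, Kdr and Flt1 had at least 35 reads in every library of both knockout fractions. Eng, Kdr and Flt1 stayed past the threshold whichever of the 10 libraries was dropped. Cldn5 (1.60, SE 1.41, adjusted p = 0.382) was not called by edgeR and was called by limma voom (4.76, adjusted p = 0.0358). Pecam1 (-0.29, SE 0.63) and Cdh5 (-1.03, SE 1.67) had edgeR adjusted p of 0.738 and 0.642, and Cdh5 turned to 0.57 with limma voom and to 0.36 with the replicate block. Over libraries, 3 of the 7 genes were higher in knockout retina than in knockout microglia without overlap, beside 25.7% of all genes tested, and Eng was lower, beside 20%. These 3 were Kdr, Flt1 and, under the limit just given, Esam. In controls Eng was lower without overlap, under the limit given for its call, beside 27%. The other 5 tested genes overlapped, where 21.9% of all genes were higher.

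A call in knockouts and none in controls does not show that the fractions differed more in knockouts. For the 8 genes other than Tie1 and Dll4, the interaction of genotype and fraction gave 0 calls by any of the tools (edgeR, DESeq2, limma voom), and 0 genes had an unadjusted edgeR p under 0.05, beside 0.469% of 18128 genes called by edgeR (0.392% positive and 0.0772% negative) and 12.5% at the unadjusted p. The interaction includes the retina contrast known when the genes were chosen, so these counts and the following values are a description. On the log2 scale it was 1.79 (SE 0.99) for Kdr, 3.11 (SE 2.48) for Esam, 1.31 (SE 1.35) for Eng and 0.26 (SE 0.80) for Flt1.

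**Figure D4:**
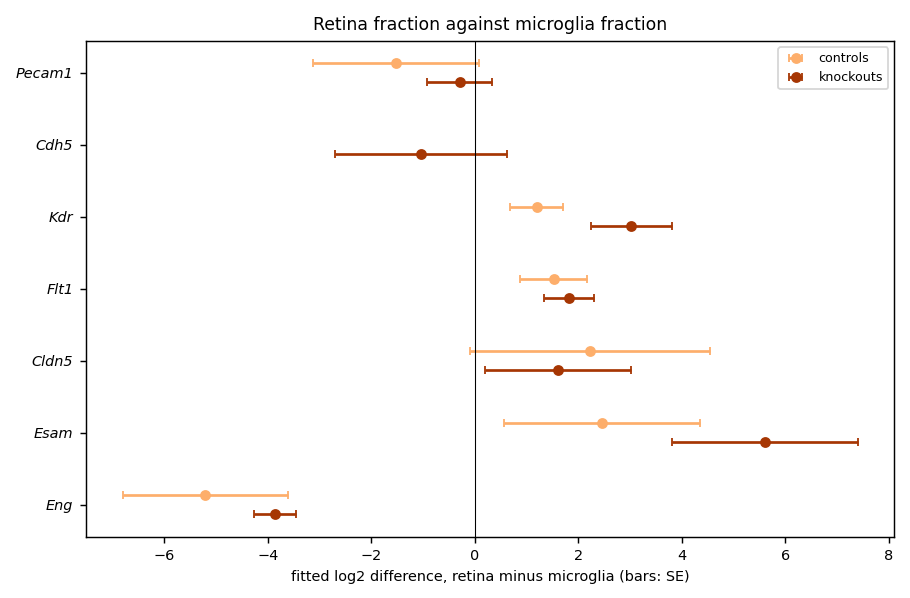
Fitted log2 difference, retina minus microglia, of the tested members in controls and in knockouts (points with bars of 1 SE; Cdh5 passed the filter in knockouts only). Eng lies at -5.20 and -3.86, below 0 in both genotypes, and Kdr and Flt1 lie above 0 in both.

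Rod transcripts give a measure of rod RNA in the microglia libraries, which need not hold for other retinal cells. The median of 14 rod genes in microglia was 4.71% of its retina level in controls (3.87 to 5.46%) and 6.07% in knockouts (4.19 to 8.10%). Kdr in microglia was at 39.8% and 11.1% of its retina level, Flt1 at 32.4% and 25.5%, Cldn5 at 19.8% and 30.04%, Esam at 16.5% and 1.82%, and Tek at 0.111% and 0.290%. Of the 185 Cldn5 reads in control microglia 183 were in replicate 3, so that its value in controls rests on that library. Kdr and Flt1 stood above the rod range in both genotypes, Esam above it in controls and below it in knockouts, and Tek below it in both. Mueller glia genes had a median of 36.1% in controls (21.2 to 425%) and 23.8% in knockouts (6.43 to 408%). Kdr and Flt1 lay within these wider ranges in both genotypes, so they are not set apart from genes of other retinal cells. The part of carried-over retinal RNA in their microglia levels was not tested. Pecam1, Cdh5 and Eng were higher in microglia than in retina on this measure, at 273%, 424% and 3621% in controls and 111%, 188% and 1327% in knockouts. Markers of other CD11b-positive cells were present in that fraction, with 14 genes of border macrophages, monocytes and granulocytes summing to 74.1 to 479 CPM in control and 170 to 586 CPM in knockout microglia. Platelet genes, 8 in number, summed to 26.4 to 80.2 and 30.6 to 92.1 CPM, with means of 46.4 and 69.3 CPM. Most of that came from Pf4 (19.3 and 31.9 CPM) and Gp9 (24.4 and 34.0 CPM). Pf4 is also counted in the macrophage sum, so the sums of these lists are not independent. In retina the platelet sum stayed at or under 5.45 CPM. The part of these cells in the levels of Pecam1 and Eng was not tested.

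For the gene lists that follow, the shares over all genes in the retina comparison of genotypes were 1.66% called by edgeR, 7.77% by DESeq2 and 2.37% by limma voom, with 14.2% at an unadjusted edgeR p under 0.05. A list whose own share is near these is not set apart by it. A gene can pass the filter through 1 genotype alone, which bears on its sign, and the share of positive signs over all genes was not counted. Of 13 Mueller glia genes 12 had a positive sign, and of 14 rod genes 14 had a negative sign. A lean of signs in a list is therefore not read as a result.

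Other endothelial genes were read from a list of 36, of which 6 to 21 had at least 10 reads in control retina libraries and 20 to 25 in knockout retina. Of the 22 that passed the filter in retina, 18 had a positive and 4 a negative log2 change between genotypes, with a median of 0.99, and edgeR, DESeq2 and limma voom each called 0 (1 at an unadjusted edgeR p under 0.05). That 1 was Itm2a, a membrane protein gene, at 7.72 ± 3.07 and 17.96 ± 5.82 CPM (log2 change 1.12, SE 0.40, adjusted p = 0.227). Podxl, which encodes podocalyxin and is abundant in retina, was at a log2 change of -0.08 (SE 0.26). The endothelial nitric oxide synthase gene Nos3 was at 0.44 (SE 0.39), and the sphingosine 1-phosphate receptor gene S1pr1 at 0.56 (SE 0.32). Not every endothelial gene was higher in knockout retina, although 18 of the 22 that passed the filter had a positive change. The transcription factor gene Erg had 198 reads in control retina, in 1 library, and 0 in knockout retina. Robo4, a guidance receptor gene, had 334 (330 of them in 1 library) and 16, so each of these 2 exceptions rests on 1 control library. Emcn, which encodes endomucin, had 365 and 265 reads, whereas the von Willebrand factor gene Vwf had 2 and 1435, with 0 to 732 in single knockout libraries. In microglia, 21 of the 36 passed, with a median of 0.51 and edgeR called 0. DESeq2 called 1, beside 1.61% of all genes in microglia. Cd34 and Fli1 had an unadjusted edgeR p under 0.05, beside 5.76% of all genes. Their directions were opposite, with Cd34 at 384 and 484 CPM in control and knockout microglia and Fli1 at 226 and 172 CPM.

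Ligands and partners of the listed receptors gave few differences between genotypes in retina. Of 13 genes for angiopoietins, VEGF ligands, co-receptors and the TIE phosphatase, 6 passed, 5 with a positive sign (median log2 change 0.46), and edgeR called 0 (1 at an unadjusted p under 0.05). That gene was Ptprb, which encodes VE-PTP, the phosphatase that acts on TEK. Ptprb had 11, 0, 0 and 17 reads in control retina and 408, 373, 223, 553 and 191 in knockout retina, with no overlap (log2 change 5.80, SE 1.39). Ptprb passed the filter through knockout retina alone and was named after its values were seen. Its calls by DESeq2 and limma voom, with none by edgeR, therefore carry no weight and are given without a p-value. Angpt2, the TEK ligand released by activated endothelium, had 0 reads in each control retina library and 159, 0, 162, 0 and 143 in knockout retina. The main ligand of KDR, Vegfa, was at 57.8 and 78.3 CPM in control and knockout retina (log2 change 0.35, SE 0.18), and Vegfb at 31.04 and 48.4 CPM (0.52, SE 0.32). The VEGF receptor gene Flt4 was at -0.65 (SE 1.19) and the co-receptor gene Nrp1 at 0.41 (SE 1.41).

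Of 18 Notch receptor, ligand and target genes, 17 passed in retina, 15 with a positive sign (median 0.86). EdgeR called 0, with 2 at an unadjusted p under 0.05, both called by DESeq2 and neither by limma voom: the target gene Hes1 (0.97, SE 0.29, edgeR adjusted p = 0.142) and Lfng, which encodes a glycosyltransferase that tunes Notch to its ligands (1.61, SE 0.48, adjusted p = 0.140). The share of the list at the unadjusted p was under that over all genes. Notch1, the main DLL4 receptor in sprouting vessels, was at 1.41 (SE 1.48). The ligand genes Jag1 and Jag2 were at -0.40 (SE 0.24) and 0.85 (SE 0.40), and Rbpj, the DNA-binding partner of the cleaved receptor, at -0.47 (SE 0.40). Of 15 genes of endoglin and BMP9 signalling 10 passed (7 positive, median 0.91), and edgeR, DESeq2 and limma voom called 0, with 0 at an unadjusted p under 0.05. The type II receptor gene Bmpr2 was at -0.45 (SE 0.68), the transducer genes Smad1 and Smad5 at -0.01 (SE 0.33) and -0.45 (SE 0.52), and the target gene Id3 at 0.76 (SE 0.49).

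Barrier genes were read from 2 lists. Norrin and Wnt signalling, which builds the retinal barrier, had 10 of 10 genes past the filter, 8 with a positive sign (median 0.48), and 0 called by edgeR, DESeq2 or limma voom. The norrin receptor gene Fzd4 alone was under an unadjusted p of 0.05, at -0.62 (SE 0.27, edgeR adjusted p = 0.334). Its co-receptor gene Lrp6 was at -0.40 (SE 0.23), and the beta-catenin gene Ctnnb1 at 0.04 (SE 0.18). Adgra2, a co-activator gene of brain endothelial Wnt signalling, was at 1.46 (SE 1.29). Tight junction and transport genes had 10 of 11 past the filter, 8 with a positive sign (median 0.30), and edgeR called 0. DESeq2 called 1 and limma voom 0. An unadjusted p under 0.05 was found for 2, Cldn12 (0.61, SE 0.14, edgeR adjusted p = 0.0683) and Jam2 (-0.51, SE 0.16, adjusted p = 0.152). The scaffold gene Tjp1 was at 0.26 (SE 0.31), and the glucose transporter gene Slc2a1 at 0.24 (SE 0.13).

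Pericytes and smooth muscle cells wrap the same vessels, and 16 of their genes were read. In control retina 5 to 7 had at least 10 reads and in knockout retina 8 to 13, which did not overlap. Of these, 10 passed the filter, 9 with a positive sign (median 1.66), and edgeR called 0 (4 had an unadjusted p under 0.05), with 3 higher and 1 lower by DESeq2 and 0 by limma voom. The pericyte potassium channel gene Kcnj8 had 91, 19, 124 and 2 reads in control retina and 559, 730, 794, 371 and 204 in knockout retina (log2 change 3.16, SE 1.03, edgeR adjusted p = 0.174). Notch3, the Notch receptor gene of mural cells, had 0, 8, 1 and 0 reads in control retina and 30, 568, 175, 457 and 12 in knockout retina, with no overlap. Pdgfrb, the growth factor receptor gene that defines pericytes, was at 0.65 (SE 0.66), and the pericyte gene Rgs5 at 1.22 (SE 1.20), while the smooth muscle myosin gene Myh11 did not pass the filter. Vtn, also made by neural retina, was at -0.50 (SE 0.14, adjusted p = 0.125).

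Genes of other cell types moved in the same retina comparison. Of 14 rod genes 14 had a negative log2 change, with a median of -0.59 and 6 called lower by edgeR, beside 0.326% of all genes. Of 10 cone genes 4 were called higher (median 1.67), and of 12 bipolar cell genes 6 (median 1.71), beside 1.34% of all genes. Summed CPM of the rod list was 178810 to 221863 in control retina and 143365 to 168284 in knockout retina, without overlap. Red blood cell genes, 7 in number, summed to 118 to 310 CPM in control and 55.6 to 682 CPM in knockout retina, which overlapped. The part of cell composition in the levels of the endothelial genes was not tested.

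The summed CPM of the 10 genes was compared with each of 13629 other genes over the 9 retina libraries, on a log2 scale. The highest Pearson correlations were those of Tex28 (0.990), Qsox1 (0.986), Nrcam (0.985), Ccdc149 (0.983), Foxn3 (0.981), Pak3 (0.977), Neurl1a (0.975), Btbd9 (0.974), Cpxm1 (0.974) and Gmppb (0.973), with 2 predicted gene models passed over. None of these 10 is a gene of the vascular lists. The points share their libraries and genotypes, the 2 genotypes did not overlap in the sum, and Kdr made up most of the sum in most libraries, so the values are a description only.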

How the data were processed

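Sorted-cell RNA, in nanogram amounts, was amplified by the SMARTer Ultra Low method before paired-end sequencing, per the labels' protocols. The authors deposited raw counts per gene for the 18 libraries. DRAGEN, STAR 2.7.9a, Subread, featureCounts, edgeR, limma and the build GRCm38 are named, without roles, in the submitters' processing notes. Per the file headers, the authors' deposited comparison tables, 1 for each fraction, give each gene's log2 change, log2 mean CPM, p-values and a likelihood ratio, treated here as a score. Whether counting used strand is not given in the sources used here.

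After removal of 287 lines that duplicated another line's identifier and counts, 55487 of 55774 lines were kept. Positions came from GENCODE M21 and promoter windows from RefSeq (GRCm38.p6; 7 of 10 members matched). CPM printed here are counts scaled to the library's total, without TMM factors. Low genes were removed by group with filterByExpr, libraries were scaled by TMM, and the quasi-likelihood test of edgeR 4.0.16 (R 4.3.3) was run. A gene was called where its p, adjusted by Benjamini-Hochberg over all genes tested, was under 0.05. Each comparison used the libraries of its own groups, and the interaction used all 18. SE was taken as the size of the log2 change over the square root of F. The fits were tested on simulated data. Where a group held 1 to 3 reads the ratio is given with its 95% counting interval, and where it held 0 a floor of 3 counts over the group was used. Correlations with other genes used log2(CPM + 0.5).

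The members and all gene lists were chosen with earlier results of these data known. The text names, by rule, all members, and from each vascular list the 4 genes with the highest mean in control retina and any gene called between genotypes, except that a gene is not reported here. Neuronal, glial, platelet, red blood cell and macrophage lists are given as counts, sums, medians and ranges only, except that Pf4 and Gp9 are named as the larger part of the platelet sum. Hes1, Lfng, Ptprb, Angpt2, Cldn12, Kcnj8, Notch3, Erg, Robo4, Emcn, Vwf, Cd34 and Fli1 were named after their values were seen. Each comparison was repeated with DESeq2 1.42.0, limma 3.58.1 (voom), DESeq2 size factors within edgeR, a replicate block, no filter, a minimum of 1 CPM in at least 4 libraries, and each library left out.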

Additional observations from a re-analysis of the deposited data

Results flagged for a closer look

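Of 38 sets of 1 gene in 1 group, 9 held a library set apart from the others by more than the 95% critical gap of Dixon's test. Chance gives about 5% for normally distributed values, which counts with many 0 values are not. A set with reads in 1 library and 0 in all others is flagged whatever the value. The share over all genes was not counted, so the number flagged is not read as an excess. In microglia these were Tie1 in control replicate 3 (0.685 CPM) and in knockout replicate 1 (9.00 CPM), Cldn5 in control replicate 3 (4.32 CPM) and Esam in knockout replicate 3 (4.14 CPM). Single reads gave Tek in control microglia replicate 2 (0.0244 CPM), Dll4 in knockout microglia replicate 2 (0.0252 CPM) and Dll4 in control retina replicate 3 (0.0257 CPM), each under the level of 3 counts. In retina they were Cdh5 in control replicate 2 (1.27 CPM) and Eng in knockout replicate 2 (19.6 CPM). Control microglia replicate 3 was the library set apart for both Tie1 and Cldn5, and it also had the most Pecam1, Cdh5, Kdr, Flt1 and Esam reads of its group.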

How the results depend on the processing

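The 255 genes called between genotypes in retina became 120 with no filter, 1184 with DESeq2 and 0 with the replicate block, and 96 to 342 when 1 library was left out. The 17 called in microglia became 8, 237 and 2 under the same settings, 26 with limma voom, and 4 to 21. The 85 called for the interaction became 1076 with DESeq2, 145 with limma voom and 9 with the replicate block. Genes called between fractions numbered 5328 to 5854 in controls and 6317 to 7507 in knockouts when 1 library was left out. Of the 8 members tested between fractions, the 1 called in controls became 2 with limma voom, 0 with the replicate block and 0 to 2 with 1 library left out, and the 4 called in knockouts became 3 to 5. These 4 include Esam, whose call carries no weight, and the 1 in controls is Eng, whose call there carries none either. The difference of Cdh5 in knockouts reversed to 0.57 with limma voom and 0.36 with the replicate block. The cause of these changes was not tested. Same-numbered libraries of different groups did not deviate together (correlations of -0.0468 to 0.0575 over 18134 genes, and 7 of 17 pairs had their own number as the best match), so the numbers were not taken as pairs. Levels under 3 counts per library, as for Dll4 and Tek in microglia, were not detectable at this depth, and amplified reads make counting intervals too narrow.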

Other observations

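Genes with at most 1 read in total in control retina and at least 10 reads in every knockout retina library numbered 44 of 12509 (0.352%), Tie1 and Dll4 among them. The mirror pattern was found in 1 of 10882 genes (0.00919%). In microglia the corresponding numbers were 4 of 10607 genes present in knockouts and 11 of 12420 present in controls. These counts were chosen after the data were seen.

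Lyve1, a gene of lymphatic endothelium and of vessel-associated macrophages, had 0, 0, 163 and 234 reads in control retina and 679, 737, 654, 767 and 794 in knockout retina, with no overlap (log2 change 2.89, SE 1.502, edgeR adjusted p = 0.451). Abcc9, the partner of the Kcnj8 channel in pericytes, was at 0.00582 ± 0.0116 CPM in control retina (n = 4) and 12.9 ± 15.9 CPM in knockout retina (n = 5), with a knockout library at 0. It was called by DESeq2 and not by edgeR or limma voom. Abcc9 passed the filter through knockout retina alone, so that call carries no weight and no p-value is given. Lyve1 and Abcc9 were named after their values were seen.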
